A study of Mus musculus with 10 samples.

Results

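The Hedgehog receptors, co-receptors and transducers examined here were 9 of the 14623 genes in the count table, namely the co-receptors Gas1, Boc and Cdon, the transducers Smo, Sufu, Gli2 and Gli3, the receptor Ptch1 and the ligand-binding protein Hhip. Their rows were found by gene symbol, and all 9 had a row. To follow them in adipose tissue, single cells of the stromal vascular fraction (SVF, the cells of fat other than adipocytes) of inguinal white adipose tissue (iWAT) were compared between 1 lean Bbs8-/- mouse (Bbs8 KO) and 1 lean Bbs8+/+ mouse (Bbs8 WT), both aged 7 weeks and with no treatment named. BBS8 is a subunit of the BBSome, the complex that carries membrane proteins out of the primary cilium, and Ttc8 is the symbol of its gene. Transcripts were captured with Seq-Well S3, a microwell method that tags each captured molecule with a unique molecular identifier (UMI). With 1 mouse per genotype no test between genotypes was possible, and a difference between genotypes cannot be told apart from one between mice.

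In mammals, Hedgehog ligands are received at the primary cilium. Without ligand, PTCH1 keeps SMO inactive, and GLI3 and, to a lesser extent, GLI2 are processed into repressors with the help of SUFU. Ligand binding to PTCH1, aided by the co-receptors GAS1, BOC and CDON, releases SMO, so that full-length GLI proteins activate targets such as Gli1, Ptch1 and Hhip. HHIP binds ligand at the cell surface and so dampens the response. In fat, adipocyte precursor cells (APCs) carry primary cilia, and Hedgehog activity is known to restrain adipocyte formation.

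The table held 8985 Bbs8 KO cells with 3144195 UMIs and 1929 Bbs8 WT cells with 715989 UMIs, at medians of 251 and 278 UMIs per cell. Cells of each mouse fell into 5 barcode sets, each named by a set code in the table (KO5_p2 to KO6_p3 and WT3_p1 to WT4_p3). The codes could not be matched to single labelled samples, and although the study's methods name a pair of arrays for every sample and pooled PCR reactions, no source used here ties either to the codes. It is therefore not known what the numbers in the codes stand for, and the ranges over sets cannot be read as a spread between replicate mice. Between sets, 36 barcodes recurred, in 103 cells. Stromal cells, named from markers such as Pdgfra, Dcn and Col1a1, made up 21.0% of Bbs8 KO (1891 cells) and 36.8% of Bbs8 WT cells (710 cells). They divided into P1-like cells (490 and 187), P2-like cells (1219 and 435) and P3-like cells (182 and 88). The marker lists behind these names include the stem-like markers Dpp4 and Pi16 for P1, the committed-precursor marker Col15a1 for P2 and F3 for P3. At a finer clustering resolution of 1.2, P2-like cells were fewer (801 and 299). A separate cluster of 613 cells then exceeded the other stromal clusters on average in none of these lists. Of its cells, 557 were stromal in the main clustering. The 9 genes were kept out of the clustering features, so that the classes do not rest on them. Levels are given as CPM, the UMIs of a gene scaled to a common total of all UMIs. No UMI of Ttc8 was counted in the Bbs8 KO cells (0 UMIs, a limit of 0.954 CPM from a floor of 3 counts), against 5 UMIs in Bbs8 WT, or 6.98 CPM (exact Poisson 95% interval 2.27 to 16.3). None of these 5 UMIs lay in stromal cells, where the genotype could therefore not be checked.

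Within the classes named stromal, the libraries also differed in markers of other cell types. The 8 pan-stromal markers, all detected in both mice, summed to 68954 CPM in Bbs8 KO (sets from 65853 to 76569) and to 85424 CPM in Bbs8 WT (sets from 79176 to 96801). All 9 T cell markers were detected in Bbs8 KO stromal cells and 8 of 9 in Bbs8 WT, at sums of 665 and 162 CPM with set ranges of 555 to 716 and 0 to 208. The 8 B cell markers summed to 860 CPM (8 detected, sets 555 to 957) and 210 CPM (7 detected, sets 0 to 252). The 10 macrophage markers, all detected in both mice, summed to 1098 CPM (sets 694 to 1264) and 512 CPM (sets 232 to 692). The 9 endothelial markers summed to 332 CPM (9 detected, sets 223 to 412) and 92.2 CPM (7 detected, sets 13.1 to 147). The largest ratio between the mice was that of the 7 mitotic markers, at 225 CPM (7 detected, sets 154 to 265) and 25.4 CPM (3 detected, sets 0 to 52.3). For these lists the sets of the mice did not overlap, whereas those of the monocyte, dendritic, NK cell and pericyte lists did. The P2 and P3 markers were lower in Bbs8 KO stromal cells, at 7369 against 10659 CPM and at 1768 against 2849 CPM, with sets apart. Stromal ratios are therefore also given per 1000 UMIs of the pan-stromal markers for those of the 9 genes with at least 20 UMIs. The part of these markers in the values below was not tested beyond that.

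Gas1, Boc, Cdon, Smo and Gli3 were detected mainly in stromal cells, whereas Ptch1 was not. Stromal cells of both mice held 29.1% of all UMIs. They held 74.9% of the 431 Gas1 UMIs (exact Clopper-Pearson 95% interval 70.6 to 79.0), 71.6% of the 148 Cdon UMIs (63.6 to 78.7), 70.5% of the 88 Smo UMIs (59.8 to 79.7) and 65.9% of the 85 Boc UMIs (54.8 to 75.8). For Gli3 the share was 61.3% of 31 UMIs (42.2 to 78.2), and for Sufu it was 46.5% of 43 UMIs (31.2 to 62.3). All of these intervals lay above 29.1%. Within each mouse, against stromal shares of 25.7% in Bbs8 KO and 43.9% in Bbs8 WT, the intervals of Gas1, Cdon and Smo lay above in both, while those of Sufu in Bbs8 KO (39.5%, 24.0 to 56.6) and of Boc (55.6%, 35.3 to 74.5) and Gli3 (3 of 6 UMIs) in Bbs8 WT included it. Of the 41 Ptch1 UMIs, 19.5% were stromal (8.82 to 34.9), an interval that includes the stromal share of all UMIs. Hhip had 7 of 8 UMIs in stromal cells, and Gli2 had 1 of 6.

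**Figure D1:**
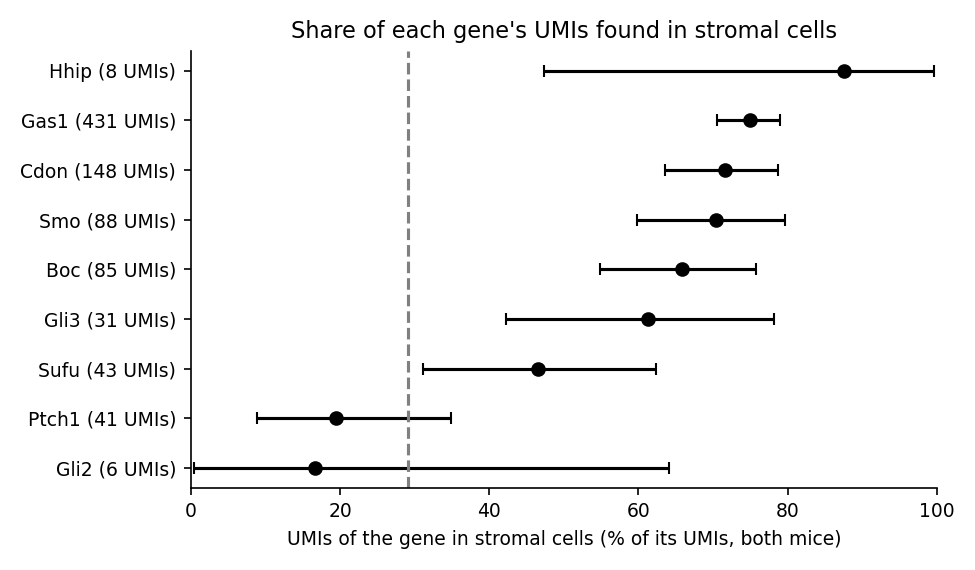
Share of each gene's UMIs that lay in stromal cells, in percent of its UMIs over both mice; points are shares, bars are exact Clopper-Pearson 95% intervals, and the dashed line marks the 29.1% of all UMIs held by stromal cells. Gas1, Cdon, Smo and Boc lie between 65.9% and 74.9%, and Ptch1 lies at 19.5% with an interval that spans the line.

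Gas1 encodes a GPI-anchored surface protein that binds Hedgehog ligands together with PTCH1. Its gene lies on the minus strand of chromosome 13 (mm10 chr13:60174405-60177365). With both mice combined, Gas1 was at 359 CPM in P3-like cells (exact Poisson 95% interval 262 to 481), 317 CPM in P2-like cells (276 to 362) and 199 CPM in P1-like cells (153 to 254). The intervals of the neighbours P3 and P2 overlapped, and that of P1 lay below both. This order of P1 was that of Bbs8 KO (153 CPM in P1, 319 in P2 and 379 in P3), whereas the levels of Bbs8 WT were 323, 310 and 319 CPM. Outside the stroma, Gas1 was at 47.3 CPM in endothelial-like (26.5 to 78.1), 45.2 CPM in pericyte-like (2 UMIs, 5.47 to 163), 44.3 CPM in monocyte-like (20.2 to 84.0), 42.4 CPM in epithelial-like (11.6 to 109), 19.1 CPM in macrophage-like (7.03 to 41.7) and 10.5 CPM in mitotic cells (1 UMI, 0.266 to 58.6), and it had 0 UMIs in dendritic-like cells, which allows up to 117 CPM. These neighbours in the order did not differ beyond their intervals. In T and B cell-like cells, which should lack Gas1, it was at 4.87 CPM (1.33 to 12.5). By mouse this was 2.63 CPM in Bbs8 KO (2 UMIs) and 33.7 CPM in Bbs8 WT (2 UMIs). In the 3212 cells of clusters without leading markers it was at 86.3 CPM (66.8 to 110), where the median depth was 209 UMIs for Bbs8 KO and 228 for Bbs8 WT, against 303 and 329 in stromal cells.

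**Figure D2:**
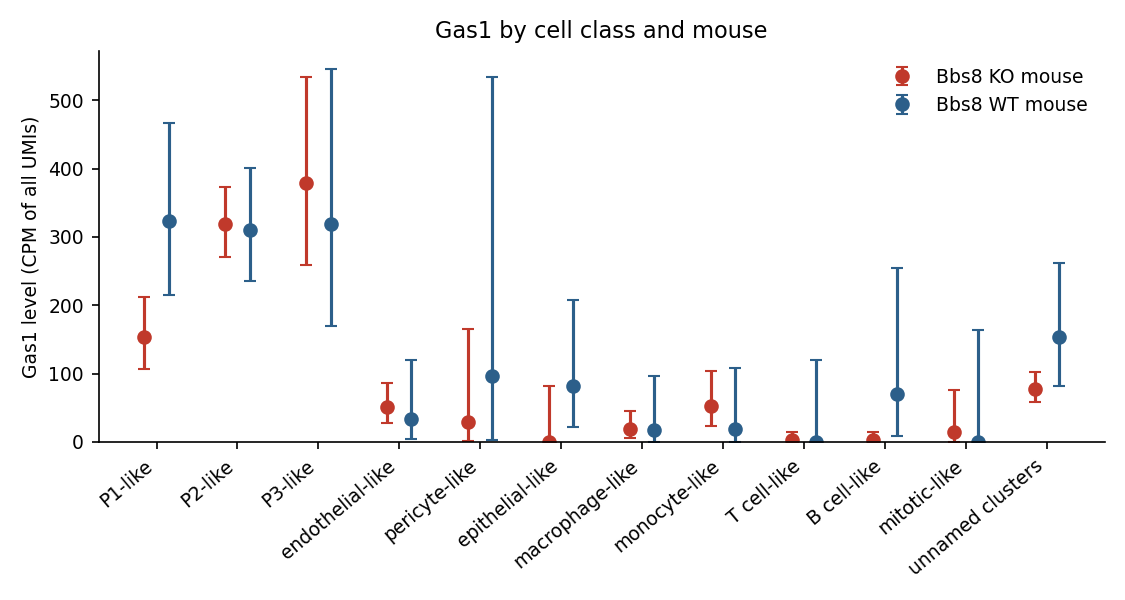
Level of Gas1 in CPM of all UMIs by cell class, with Bbs8 KO in red and Bbs8 WT in blue; points are levels of the summed UMIs of 1 mouse and bars are exact Poisson 95% intervals, which cover counting error only. Levels are highest in the 3 stromal classes, and in P1-like cells the Bbs8 KO level of 153 CPM lies below the Bbs8 WT level of 323 CPM.

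A Gas1 UMI was found in 8.83% of Bbs8 KO stromal cells (167 of 1891, 7.59 to 10.2) and 11.4% of Bbs8 WT stromal cells (81 of 710, 9.16 to 14.0). Among lymphocyte-like cells, with medians of 272 and 239 UMIs per cell, the shares were 0.0954% (Bbs8 KO, 2 cells) and 0.935% (Bbs8 WT, 2 cells), below the stromal shares. When every cell was thinned to 100 UMIs, which left out no cell, the stromal shares were 1.90% (1.34 to 2.63) and 3.52% (2.29 to 5.15).

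In stromal cells as a whole, whether Gas1 differed between the mice beyond counting error depended on the scaling. The 5 Bbs8 KO sets were at 197, 277, 283, 300 and 327 CPM, and the 5 Bbs8 WT sets at 261, 270, 304, 324 and 418 CPM. The sets overlapped, with the lowest in Bbs8 KO and the highest in Bbs8 WT. Summed over sets, Gas1 was at 277 CPM in Bbs8 KO (224 UMIs) and 315 CPM in Bbs8 WT (99 UMIs), a log2 ratio of KO over WT of -0.18 (with a pseudocount of 5 CPM; exact conditional 95% interval of the plain ratio -0.53 to 0.17). Per 1000 pan-stromal UMIs it was at 4.02 and 3.69, a log2 ratio of 0.12 (-0.22 to 0.48), so the direction depended on the scaling. With TMM it was -0.36 (-0.71 to -0.01) and with DESeq2 size factors -0.40 (-0.75 to -0.05), intervals below 0. Thinning each cell to 100 UMIs gave -0.85 (-1.62 to -0.09) and weighting every cell equally gave -0.37.

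Among the stromal classes, the Gas1 ratio with CPM was farthest from 0 in P1-like cells, and differences between classes in this ratio were not tested. In P1-like cells of Bbs8 KO the sets were at 123, 127, 157, 169 and 189 CPM. In those of Bbs8 WT they were at 107, 289, 444, 500 and 621 CPM. All Bbs8 KO sets thus lay below 4 of the 5 Bbs8 WT sets, and the ranges overlapped through WT4_p2 alone, the largest of the Bbs8 WT sets. The summed level was 153 CPM in Bbs8 KO (36 UMIs, 107 to 212) and 323 CPM in Bbs8 WT (28 UMIs, 215 to 467), a log2 ratio of -1.06 (-1.83 to -0.31). Per 1000 pan-stromal UMIs, 2.14 and 4.30, the log2 ratio was -1.01 (-1.76 to -0.24). The share of P1-like cells with a Gas1 UMI was 5.10% in Bbs8 KO (25 of 490, 3.33 to 7.44) and 10.2% in Bbs8 WT (19 of 187, 6.23 to 15.4), at median depths of 334 and 326 UMIs.

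The size of this ratio rested on few UMIs. Without WT4_p2 the Bbs8 WT level was 488 CPM (24 UMIs) and the log2 ratio was -1.64 (-2.46 to -0.86), without WT4_p3 it was -0.62 (-1.52 to 0.31), and with cells of at least 200 detected genes it was -0.38 (32 and 14 UMIs, -1.34 to 0.63). Its interval also included 0 when clusters were made without integration (-0.69, -1.57 to 0.21) and when the WT4 sets alone were compared with KO5 (-0.99, -2.19 to 0.13) or with KO6 (-0.78, -1.79 to 0.22). The 9 P1 markers summed to the same level in P1-like cells of both mice, 15687 CPM in Bbs8 KO (sets 14383 to 16905) and 15696 CPM in Bbs8 WT (sets 13825 to 17184), with all 9 detected. The P3 markers, of which 10 were detected in Bbs8 KO and 9 in Bbs8 WT, summed to 731 CPM (sets 595 to 1011) and 1559 CPM (sets 667 to 2848) in these cells. The P2 markers, with 10 and 8 detected, summed to 2333 CPM (sets 1965 to 2789) and 3257 CPM (sets 1926 to 5162). In the same cells, sums for Bbs8 KO and Bbs8 WT were 255 and 23.1 CPM for mitotic, 455 and 115 CPM for macrophage, 523 and 162 CPM for T cell and 795 and 254 CPM for B cell markers, each with sets apart. The part of these marker differences in the Gas1 ratio was not tested.

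In P2-like and P3-like cells, the intervals of the Gas1 ratio included 0 with CPM, while that of P2-like cells lay above 0 per pan-stromal UMIs. Gas1 was at 319 CPM (156 UMIs, sets 197 to 385) and 310 CPM (58 UMIs, sets 202 to 397) in P2-like cells, a log2 ratio of 0.04 (-0.40 to 0.50). Per 1000 pan-stromal UMIs, 4.89 and 3.52, the P2 ratio was 0.47 (0.03 to 0.94), beside pan-stromal sums of 65286 and 88042 CPM. In P3-like cells it was at 379 CPM (32 UMIs, sets 231 to 577) and 319 CPM (13 UMIs, sets 0 to 544), a log2 ratio of 0.24 (-0.72 to 1.30) that was 0.44 (-0.53 to 1.49) per pan-stromal UMIs. Of the 13 UMIs of P3-like Bbs8 WT cells 10 came from WT4_p2, without which the ratio was 1.46 (-0.18 to 3.85).

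Compared within each set, Gas1 was lower in P1-like than in P2-like cells in 5 of 5 Bbs8 KO sets and in 2 of 5 Bbs8 WT sets. The log2 ratio of P1 over P2 was -1.04 in Bbs8 KO (-1.63 to -0.53) and 0.06 in Bbs8 WT (-0.64 to 0.74), and the difference between these ratios was not tested.

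**Figure D3:**
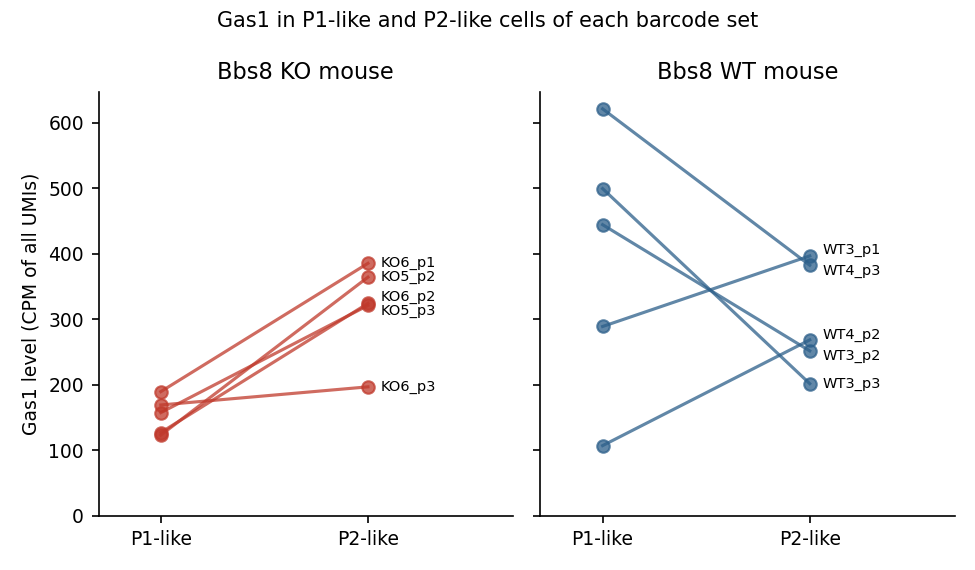
Level of Gas1 in CPM of all UMIs in P1-like and P2-like cells, with a line for each barcode set, Bbs8 KO on the left and Bbs8 WT on the right. All 5 Bbs8 KO lines go up from P1 to P2, while of the 5 Bbs8 WT lines 2 go up and 3 go down.

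Boc and Cdon are related transmembrane proteins of the immunoglobulin superfamily that bind ligand as co-receptors beside GAS1. Boc lies on chromosome 16 (mm10 chr16:44485049-44558897, minus strand) and Cdon on chromosome 9 (chr9:35421128-35507652, plus strand). In stromal cells, Boc was at 60.2, 65.1, 48.2, 46.2 and 34.8 CPM in KO5_p2, KO5_p3, KO6_p1, KO6_p2 and KO6_p3. In Bbs8 WT it was at 0 in the 3 WT3 sets, at 32.6 CPM in WT4_p2 and at 144 CPM in WT4_p3. All 15 stromal Boc UMIs of Bbs8 WT thus came from the WT4 sets, which gave 75.2 CPM (42.1 to 124). The WT3 sets had 0 UMIs among 115131 stromal UMIs. This allows up to 26.1 CPM by the floor of 3 counts and 32.0 CPM by the exact Poisson interval. The summed levels were 50.7 CPM (41 UMIs) and 47.7 CPM (15 UMIs), a log2 ratio of 0.08 (-0.80 to 1.05), which was -0.08 with TMM scaling, -0.12 with DESeq2 size factors, 0.40 (-0.49 to 1.36) per pan-stromal UMIs and 1.35 (0.13 to 3.54) without WT4_p3.

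By class, Boc was at 57.3 and 69.5 CPM in P2-like cells (28 and 13 UMIs, log2 ratio -0.26, -1.27 to 0.79), and per pan-stromal UMIs the ratio turned to 0.15 (-0.84 to 1.23). In P1-like cells it had 6 UMIs in Bbs8 KO (25.5 CPM, 9.36 to 55.5) and 0 in Bbs8 WT, which allows up to 34.6 CPM, and in P3-like cells it had 7 and 2 UMIs. Outside the stroma Boc had 0 UMIs in the 843 endothelial-like cells, a limit of 9.47 CPM. Its 6 UMIs among epithelial-like cells lay in 3 cells of Bbs8 WT.

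With CPM, Cdon was the single member with at least 20 UMIs at or past a log2 ratio of 0.5 in stromal cells, and it was lower in Bbs8 KO. With other scalings the members past 0.5 differed, as given below. Of the 9 members, 5 had at least 20 UMIs in stromal cells, of which 1 was at or below -0.5 and 0 at or above 0.5. Among all 7165 genes with at least 20 UMIs there, 12.7% were at or below -0.5 and 30.2% at or above 0.5. With at least 10 UMIs Gli3 entered as well, at 0.77, beside 36.4% of genes at or above 0.5. The sets of all 5 members overlapped, and over all genes the sets were apart with Bbs8 KO above for 5.09% and below for 1.52%. The median log2 ratio was -0.18 for the 5 members and 0.15 for all genes. TMM lowered plain ratios by 0.18 and brought the all-gene shares to 19.6% and 23.4%, and DESeq2 size factors lowered plain ratios by 0.22, with shares of 21.7% and 22.2%. Smo was then past -0.5 as well, at -0.53 (-1.37 to 0.26) with TMM and -0.57 (-1.41 to 0.21) with DESeq2 size factors. Per pan-stromal UMIs Sufu was at 0.53, with an interval up to 2.35 that included 0, and neither Cdon nor Smo was past -0.5, while the median of all genes was 0.47, with 48.7% at or above 0.5 and 5.83% at or below -0.5. Relative to the all-gene median, Gas1 was at -0.33, Boc at -0.07, Cdon at -0.82, Smo at -0.52 and Sufu at 0.02 with CPM. With TMM and with DESeq2 size factors Gas1 was at -0.35, Cdon at -0.83 and Smo at -0.52 on that relative scale, and per pan-stromal UMIs they were at -0.35, -0.86 and -0.56.

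The Cdon sets were at 48.2, 58.6, 63.8, 96.3 and 154 CPM in Bbs8 KO and at 78.4, 114, 116, 155 and 261 CPM in Bbs8 WT. These ranges overlapped, with 3 Bbs8 KO sets below every Bbs8 WT set. The sums were 80.4 CPM (65 UMIs, 62.1 to 102) and 130 CPM (41 UMIs, 93.6 to 177), a log2 ratio of -0.66 (-1.28 to -0.10). Without WT3_p2, the highest set, the ratio was -0.40 (-1.08 to 0.26), and without integration of the sets it was -0.46 (-1.08 to 0.12). Its interval also included 0 when KO5_p3, KO6_p1 or KO6_p3 was left out. Against the WT4 sets alone the ratio was -0.34 for KO5 and -0.28 for KO6, while against the WT3 sets it was -1.17 and -1.11. Per 1000 pan-stromal UMIs, 1.17 and 1.53, it was -0.39 (-0.97 to 0.21), so that Cdon was then no longer past 0.5.

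Within the classes, Cdon was at 57.3 and 118 CPM in P2-like cells, with sets of 32.1, 41.9, 46.8, 86.3 and 92.6 CPM in Bbs8 KO and 59.7, 67.2, 121, 180 and 216 CPM in Bbs8 WT. The P2 sets overlapped, and the log2 ratio was -0.98 (28 and 22 UMIs, -1.89 to -0.16; per pan-stromal UMIs -0.61, -1.46 to 0.27). This value depended on the clustering and on the sets compared. It was -0.32 (-1.36 to 0.75) when the members were kept among the clustering features and -0.56 (-1.44 to 0.25) without integration. Against the WT4 sets alone it was -0.47 for KO5 and -0.60 for KO6, with intervals that included 0, and against the WT3 sets it was -1.42 and -1.55. In these P2-like cells the P2 markers summed to 10135 and 14620 CPM and the P3 markers to 1171 and 2031 CPM, both with sets apart, and their part in the Cdon ratio was not tested. In P1-like cells Cdon was at 102 and 127 CPM (log2 ratio -0.30, -1.40 to 0.86; per pan-stromal UMIs -0.24), and in P3-like cells at 154 and 196 CPM (-0.34, -1.73 to 1.13; per pan-stromal UMIs -0.16). Over both mice, Cdon was at 168 CPM in P3-like (104 to 256), 109 CPM in P1-like (75.7 to 151) and 74.0 CPM in P2-like cells (54.9 to 97.6), an order in which neighbours overlapped, and at 6.31 CPM in endothelial-like cells (0.764 to 22.8).

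Over the 3 co-receptors, 330 stromal UMIs of Bbs8 KO and 155 of Bbs8 WT gave a log2 ratio of -0.27 (-0.55 to 0.01), and 0.04 (-0.24 to 0.32) per pan-stromal UMIs. With TMM it was -0.45 (-0.73 to -0.17) and with DESeq2 size factors -0.49 (-0.77 to -0.21). In P1-like cells they summed to 280 and 450 CPM (log2 ratio -0.67, -1.28 to -0.07), and per pan-stromal UMIs the ratio was -0.61 with an interval from -1.20 that reached 0.

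The ratios between the mice, by class, counted 4 instances at or below -0.5 and 0 at or above 0.5 among the members with at least 20 UMIs. These were Cdon in all stromal and in P2-like cells, and Gas1 and Smo in P1-like cells. All stromal cells include the other classes, so such instances are not independent. P2-like cells held 28 of the 65 stromal Cdon UMIs of Bbs8 KO and 22 of the 41 of Bbs8 WT. TMM gave 4 instances as well, with Smo in all stromal cells in place of Smo in P1-like cells (-0.46), and DESeq2 size factors gave 5, with Smo in P2-like cells added (-0.53). Per pan-stromal UMIs 2 instances were below, Gas1 in P1-like and Cdon in P2-like cells, and 1 was above, Sufu in all stromal cells. With CPM, in P1-like cells 2 of 3 members were at or below -0.5, beside 21.5% of 2550 genes (25.1% at or above 0.5). In P2-like cells 1 of 4 was, beside 16.6% of 5390 genes (30.5% above), and in P3-like cells 0 of 2 were, beside 21.9% of 835 genes (28.0% above).

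**Figure D4:**
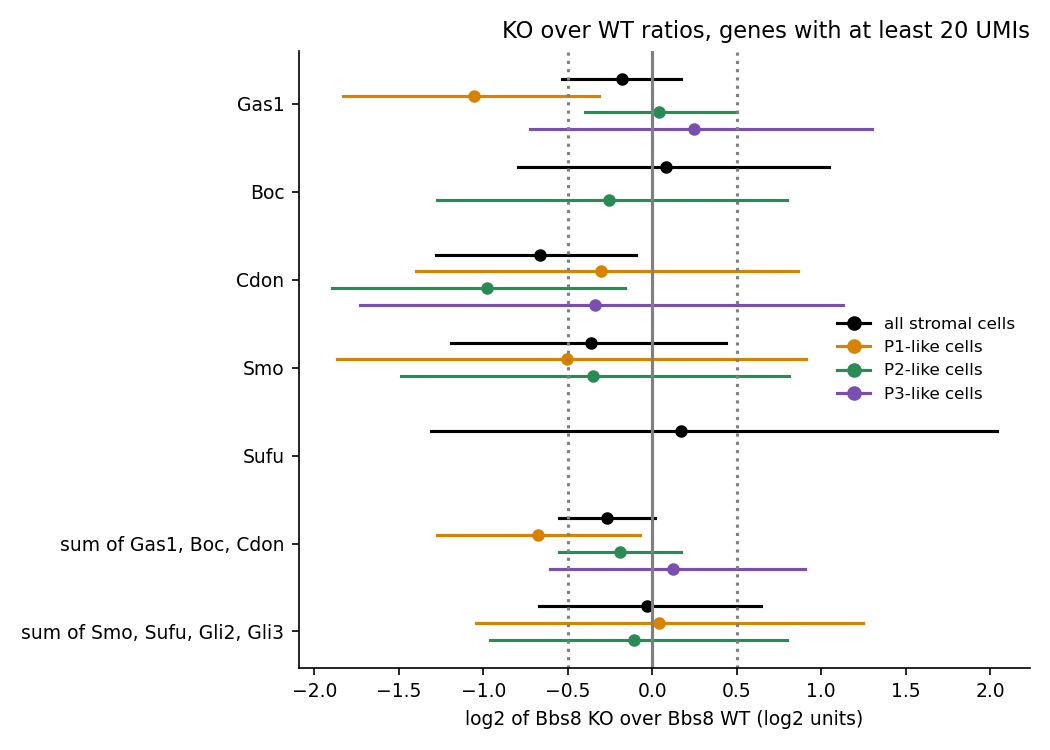
Log2 ratio of Bbs8 KO over Bbs8 WT for genes and gene sums with at least 20 UMIs in the class, in all stromal (black), P1-like (orange), P2-like (green) and P3-like cells (purple); points are ratios with a pseudocount of 5 CPM, bars span the exact conditional 95% interval of each plain ratio, and dotted lines mark -0.5 and 0.5. Among single genes, only the intervals of Gas1 in P1-like cells and of Cdon in all stromal and P2-like cells lie below 0.

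Smo, the seven-pass membrane protein that passes the signal on from PTCH1, lies on chromosome 6 (mm10 chr6:29735503-29761365, plus strand). In stromal cells its sets were at 38.5, 42.1, 45.6, 46.4 and 75.0 CPM in Bbs8 KO and at 0, 57.0, 78.4, 86.9 and 92.5 CPM in Bbs8 WT. Apart from WT3_p3, which had 0 UMIs, the Bbs8 WT sets lay above 4 of the 5 Bbs8 KO sets, but the ranges overlapped. The sums were 50.7 CPM (41 UMIs) and 66.8 CPM (21 UMIs), a log2 ratio of -0.37 (-1.19 to 0.44), and -0.09 (-0.88 to 0.74) per pan-stromal UMIs. In P1-like cells Smo was at 63.7 and 92.4 CPM (15 and 8 UMIs, log2 ratio -0.50, -1.86 to 0.91), and in P2-like cells at 45.0 and 58.8 CPM (-0.35, -1.49 to 0.81). Per pan-stromal UMIs the P1 ratio was -0.46 (-1.79 to 0.98), no longer at or below -0.5, and the P2 ratio turned to 0.05 (-1.06 to 1.24). In T and B cell-like cells of both mice Smo was at 2.44 CPM (0.295 to 8.80).

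Sufu, the cytoplasmic GLI-binding protein, lies on chromosome 19 (mm10 chr19:46396896-46488804, plus strand). It had 15 stromal UMIs in Bbs8 KO (18.6 CPM) and 5 in Bbs8 WT (15.9 CPM), a log2 ratio of 0.17 (-1.31 to 2.04). All 5 UMIs of Bbs8 WT came from WT4_p2, and the other 4 sets had 0. Leaving out 1 set at a time gave log2 ratios from -0.14 to 2.24. Outside the stroma all Sufu UMIs were of Bbs8 KO, and its level over both mice was 17.8 CPM in stromal cells (10.9 to 27.5) and 8.88 CPM in the other named cells (5.17 to 14.2), intervals that overlapped.

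Gli3, on chromosome 13 (mm10 chr13:15463235-15730026, plus strand), encodes the main repressor among the GLI transcription factors. It had 16 stromal UMIs in Bbs8 KO (19.8 CPM) and 3 in Bbs8 WT (9.54 CPM), with 2 to 5 UMIs in every Bbs8 KO set and 0, 0, 1, 0 and 2 in the Bbs8 WT sets in the order WT3_p1, WT3_p2, WT3_p3, WT4_p2 and WT4_p3. The interval of the plain log2 ratio was -0.75 to 3.47. In P1-like cells Gli3 had 8 UMIs in Bbs8 KO (34.0 CPM), with a UMI in every set, and 0 in Bbs8 WT, which allows up to 34.6 CPM, so that no difference was detectable at this depth. In P2-like cells it had 8 and 3 UMIs (-2.03 to 2.58), and in P3-like cells it had 0 UMIs in both mice. Gli2 (mm10 chr1:118834132-119053619, minus strand), the main activator among the GLI factors, had 1 stromal UMI, from a Bbs8 KO cell, and 0 of Bbs8 WT, for which the limit is 9.54 CPM. The 4 transducers summed to 73 and 29 stromal UMIs, a log2 ratio of -0.03 (-0.67 to 0.64).

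**Figure D5:**
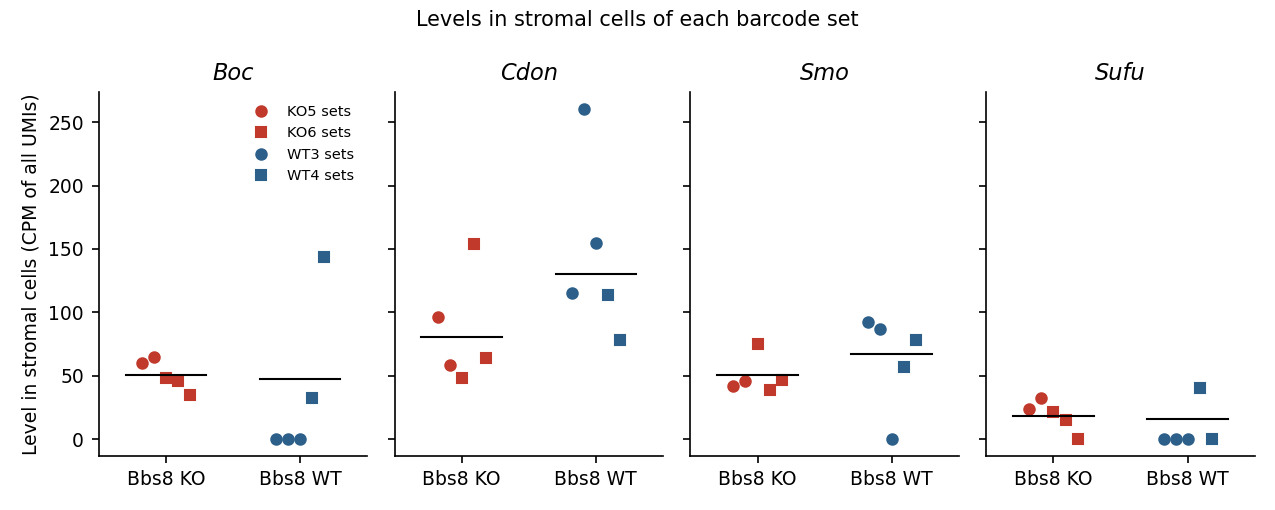
Levels of Boc, Cdon, Smo and Sufu in stromal cells, in CPM of all UMIs, with 1 point for each barcode set (KO5 and WT3 circles, KO6 and WT4 squares) and a line at the level of the summed UMIs. Boc and Sufu were at 0 in all 3 WT3 sets, and for each gene the sets of the mice overlap.

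Ptch1 and Hhip are both negative feedback targets of the pathway, so that their transcripts serve as readouts of it. Ptch1 lies on chromosome 13 (mm10 chr13:63508328-63573598, minus strand) and Hhip on chromosome 8 (chr8:79965851-80058006, minus strand). Ptch1 had 7 UMIs in Bbs8 KO stromal cells (2 in KO5_p2, 1 in KO6_p1 and 4 in KO6_p2) and 1 in Bbs8 WT (WT3_p1), and the interval of the plain log2 ratio, -1.52 to 6.94, covered both directions. Over both mice Ptch1 was at 7.12 CPM in stromal cells (3.08 to 14.0), 22.1 CPM in endothelial-like cells (7 UMIs, 8.88 to 45.5) and 7.31 CPM in T and B cell-like cells (6 UMIs, 2.68 to 15.9). The stromal level was thus at the level of lymphocyte-like cells, and no excess of Ptch1 in stromal cells over them was detectable at this depth. Whether lymphocyte-like cells lack Ptch1 was not tested. The 4 Ptch1 UMIs of P3-like cells came from 2 cells of Bbs8 KO.

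Hhip had 2 UMIs in Bbs8 KO stromal cells and 5 in Bbs8 WT, all 5 of them in WT4_p2. The interval of the plain log2 ratio was -6.08 to -0.07, and without WT4_p2 no Hhip UMI remained in Bbs8 WT stromal cells. Ptch1 and Hhip together had 9 and 6 stromal UMIs, a log2 ratio of -0.58 (-2.43 to 0.99), which was 0.66 without WT4_p2. Gli1 had no row in the count table and so could not be analysed here.

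Over all cells rather than stromal cells, Gas1 was at 98.0 CPM in Bbs8 KO (sets 78.0 to 113) and 172 CPM in Bbs8 WT (sets 138 to 274), a log2 ratio of -0.78 (-1.12 to -0.50). Cdon was at 32.1 CPM (sets 25.8 to 42.8) and 65.6 CPM (sets 43.2 to 129), a log2 ratio of -0.93 (-1.54 to -0.50). Of the 7 members with at least 20 UMIs in all cells, 4 were at or below -0.5, beside 12.9% of 10894 genes, and 1 at or above 0.5, beside 35.1%. The others below were Boc at -0.87 (-1.71 to -0.32) and Smo at -0.60 (-1.42 to 0.02), and the member above was Sufu at 0.51 (-0.56 to 2.49), all with overlapping sets. Beside these values, stromal cells held 25.7% of the UMIs of Bbs8 KO and 43.9% of those of Bbs8 WT, and in stromal cells the sets of Gas1 and of Cdon overlapped.

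Few cells showed more than 1 member at this depth. Of 2601 stromal cells, 442 (17.0%) had a UMI of any member, at a median of 536 UMIs per cell against 289 in the others. A co-receptor UMI was found in 365 and a transducer UMI in 92 cells, and both kinds in 22 cells. At least 2 different co-receptors were seen in 30 cells. The shares with any member were 15.9% in Bbs8 KO (301 of 1891) and 19.9% in Bbs8 WT (141 of 710).

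Gas1 was the single member with enough UMIs (at least 200) to ask which genes were distributed like it. Over 20 points, each 1 class in 1 mouse with at least 60 cells, and among 3659 genes with at least 200 UMIs, the highest Pearson correlations of log2 CPM with Gas1 were those of Aebp1 (0.92), Loxl2 (0.91), Il11ra1 (0.90), Vcan (0.90) and Slit3 (0.89). Loxl2 encodes a lysyl oxidase that cross-links collagen, Vcan the matrix proteoglycan versican, Il11ra1 a receptor for interleukin-11 and Slit3 a secreted guidance ligand. Among the members, Cdon had 0.68, Smo 0.66 and Boc 0.56, whereas Sufu had 0.12 and Ptch1 -0.18. The points share the libraries of each mouse and differ in depth, and the other members had 6 to 148 UMIs in all cells.

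The wider pathway comprised 50 other genes, of which 38 had a row and 26 had at least 20 UMIs in stromal cells. Of these 26, 6 were at or above 0.5 and 3 at or below -0.5, beside the 30.2% and 12.7% of all genes, with a median log2 ratio of 0.08. These counts were those of CPM and depended on the scaling. TMM gave 2 above and 4 below, beside 23.4% and 19.6% of all genes, and DESeq2 size factors gave 2 above and 7 below, beside 22.2% and 21.7%. Per pan-stromal UMIs 10 were above and 1, Evc, below, beside 48.7% and 5.83%. The values by gene that follow are with CPM. Of the 8 ligand and release genes 3 had a row, none of which reached 20 UMIs, and the other 5, with the ligands Shh, Ihh and Dhh among them, were not analysed here. Among surface modulators, 9 of 13 were measured at this depth, with 2 above and 2 below. Grk2, a kinase that phosphorylates SMO among other receptors, was at 99.0 and 44.5 CPM (log2 ratio 1.07, 0.32 to 2.09). Arrb2, a beta-arrestin, was at 38.3 and 3.18 CPM (31 and 1 UMIs, log2 ratio 2.41, 1.01 to 8.94). Evc, which with its partner Evc2 binds SMO at the base of the cilium, was at 40.8 and 85.9 CPM (log2 ratio -0.99, -1.85 to -0.28), while Evc2 was at 44.5 and 54.1 CPM (-0.25, -1.15 to 0.65). The glypican Gpc6 was at 44.5 and 66.8 CPM (-0.54, -1.40 to 0.27). Grk2 and Arrb2 are widely expressed in leukocytes, and the T cell, B cell and macrophage markers given above differed in the same direction in these cells. The part of those markers in the ratios of Grk2 and Arrb2 was not tested.

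Of 19 cytoplasmic transducers, 13 were measured at this depth, with 3 above and 1 below. The casein kinases Csnk1a1, at 375 and 261 CPM (log2 ratio 0.52, 0.17 to 0.89), and Csnk1d, at 103 and 66.8 CPM (0.59, -0.08 to 1.39), and the protein kinase A subunit Prkar2a, at 68.0 and 44.5 CPM (0.56, -0.25 to 1.57), were above. Prkaca, a catalytic subunit of protein kinase A, which starts GLI repressor processing, was at 19.8 and 31.8 CPM (-0.57, -1.91 to 0.62). Of 13 listed targets, 4 were measured at this depth, and Osr2 alone was past 0.5, at 27.2 and 15.9 CPM (0.62, -0.66 to 2.53). With CPM the intervals of Grk2, Arrb2, Csnk1a1 and Evc left out 0, and those of the other 5 did not. Per pan-stromal UMIs Evc was at -0.76 (-1.54 to 0.03), an interval that included 0, while those of Grk2, Arrb2 and Csnk1a1 lay above 0. With TMM and with DESeq2 size factors, Grk2 and Arrb2 alone remained at or above 0.5, Csnk1a1 was at 0.34 (-0.01 to 0.72) and 0.30 (-0.06 to 0.67), and Evc, Gpc6 and Prkaca stayed at or below -0.5. Spop, which encodes an adaptor that brings GLI proteins to degradation, was then also below, at -0.54 (-0.92 to -0.17) and -0.58 (-0.97 to -0.21), but at -0.06 (-0.43 to 0.32) per pan-stromal UMIs.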

How the data were processed

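The deposited table gave UMI counts as whole numbers for every gene in every cell. The authors demultiplexed reads with bcl2fastq 2.20 (per the labels), and their methods name dropSeqPipe, with STAR alignment to mm10 and GENCODE genes, a step that evened out depth (whether before deposit was not stated) and a filter on cells. The number of detected genes per cell ran from 101 to 994. The strand setting of the counting is not given in the sources used here, and exons of Gas1, Gli3 and Hhip overlap an opposite-strand gene that has no row in the table. Column names gave genotype and set code, and 0 columns were left unmapped. The members and lists were chosen with earlier results of these data known.

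The 10 barcode sets were log-normalised and joined by anchor-based integration (Seurat 5.3.0, R 4.3.3; 2000 variable features without the 9 members, 30 dimensions, Louvain resolution 0.8). Clusters under 60 cells were left out. Each cluster was named after the marker list in which it exceeded the other clusters most on the log2 scale (by over 0.5, with at least 3 markers of at least 3 UMIs, pseudocount 20 CPM). Names ending in "-like" rest on markers alone and may differ from the names used by the study. Clusters without leading markers, holding 32.0% (Bbs8 KO) and 17.6% (Bbs8 WT) of the cells, stayed unnamed. Doublets were kept and no caller was run.

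Counts were summed per mouse and class. Intervals (exact Poisson, Clopper-Pearson or conditional, 95%) and the floor of 3 counts for a count of 0 cover counting error only. This floor lies below the upper end of the exact Poisson interval for a count of 0. No p-value was computed. Genes entered a count of ratios with at least 20 UMIs in the class. Named were all 9 members, other pathway genes at or past 0.5 (at most 5 each way), Gli1 and the 5 genes most like Gas1; a further gene of that rule is not reported here. Csnk1a1, Evc2 and Spop were named beyond that rule, after their values were seen. Factors from TMM (edgeR 4.0.16) and DESeq2 1.42.0 were used for scaling only. The ratios, intervals and thinning were tested on simulated data. Positions are those of GENCODE on mm10.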

Additional observations from a re-analysis of the deposited data

Results flagged for a closer look

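Among the 5 barcode sets of a mouse, 6 stromal levels lay far from the other 4 by Dixon's criterion. Examined were 36 groups of sets. These were of all 9 members in stromal cells and, within P1-like, P2-like or P3-like cells, of those with at least 20 UMIs. The usual chance rate of about 1 in 20 is for continuous values and does not hold for counts this low. Where the other 4 sets were at 0, any UMI in the remaining set gave a flag, as for Sufu, Hhip, Ptch1 and Gli2. Those flags were fixed by the rule and say nothing beyond the counts. Boc was at 144 CPM in WT4_p3 (11 UMIs), with the other Bbs8 WT sets from 0 to 32.6 CPM. Smo was at 75.0 CPM in KO6_p1 (14 UMIs), with the other Bbs8 KO sets from 38.5 to 46.4 CPM. Sufu was at 40.7 CPM in WT4_p2 (5 UMIs), with the other Bbs8 WT sets at 0. Hhip had the same counts, at 40.7 CPM in WT4_p2 (5 UMIs) and 0 in the other Bbs8 WT sets. A single UMI gave 23.1 CPM of Ptch1 in WT3_p1 and 5.80 CPM of Gli2 in KO6_p3, with the other sets of the same mouse at 0.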

How the results depend on the processing

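The 7 ratios of Gas1 and of the gene sums were recomputed under 17 alternatives fixed beforehand, 2 added after seeing the data (every cell weighted equally, and scaling by pan-stromal markers) and 10 leave-one-out settings over barcode sets. In P1-like cells Gas1 stayed lower in Bbs8 KO in all 19 alternatives (log2 ratio -2.34 to -0.38) and all leave-one-out settings (-1.64 to -0.62), but its interval included 0 with at least 200 genes per cell, without integration, for KO5 or KO6 against WT4, and without WT4_p3. Thinning every cell to 100 UMIs moved Gas1 to -0.85 in stromal, -2.34 in P1-like and -1.03 in P3-like cells and the co-receptor sum to -0.78, from few UMIs (6 and 12 in P1-like cells); it lowered the shares of stromal cells with a Gas1 UMI to 1.90% and 3.52%. Scaling by pan-stromal markers moved the co-receptor sum to 0.037. Within the numbers of the set codes, P3-like Gas1 was at 1.60 (KO5 and WT3) and 1.37 (KO6 and WT3). The leave-one-out ranges were -0.33 to -0.02 (Gas1, stromal), -0.06 to 0.19 (P2-like), 0.0537 to 1.46 (P3-like), -0.42 to -0.12 (co-receptors), -0.13 to 0.03 (transducers) and -0.96 to 0.66 (Ptch1 and Hhip). With at least 10 UMIs in place of 20, 1 member (Gli3, stromal) was at or above 0.5. Per pan-stromal UMIs, 1 member ratio was at or above 0.5 in place of 0 and 2 at or below -0.5 in place of 4, and of the 26 other pathway genes 10 and 1. With other scalings of these genes, 2 were at or above 0.5 with TMM or DESeq2 size factors in place of 6, and 7 at or below -0.5 with DESeq2 size factors in place of 3 (these counts were added after seeing the data). Cdon in P2-like cells ran from -1.55 to -0.32 over 19 alternatives. No paired analysis was possible because there was 1 mouse per genotype and the set codes pair no sets. The causes were not tested. Depth limits Gli2, Gli3, Ptch1 and Hhip to counts.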
